A study of Oryza sativa with 6 samples.

Results

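The genes described here were already expressed in Control rice leaves and were higher still 6 h after the seedlings had been given the ShSDH1 protein. Members were chosen by their FPKM in the same 6 libraries. A gene was a member if its Control mean lay from 1 to under 300 FPKM (fragments scaled to gene length and to the fragments mapped in the library), its ShSDH1 mean was at least 1.8 times the Control mean, and its lowest ShSDH1 library lay above its highest Control library. Of 29011 listed genes, 16875 had a Control mean in this range, 188 of these reached the ratio, and 171 also had libraries that did not overlap. Genes in 3 short stretches of identifiers were left out, which removed 1 of the 171 and left 170 members, 0.586% of all listed genes. The values that chose the members are the values compared between the groups, so the size and direction of their difference are a description and no test of it is offered as a finding.

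The tested leaves came from 2-week-old rice seedlings treated with ShSDH1, an oxidoreductase of the endophyte OsiSh-2 according to the series title. The other leaves came from seedlings of the same age given pCold TF protein for the same time, the product of a protein expression vector used for fusions with the chaperone trigger factor, and these are called Control. Each group has 3 libraries of total RNA from leaves, and neither a variety nor a genotype is given in the labels. An untreated group was not analysed here, so what both proteins did alike cannot be seen. Nothing in the labels says that libraries came from separate plants or days, so the spread between them, and p-values that rest on it, may be partly technical. In whole leaves a change in the share of cells that express a gene and a change in RNA per cell cannot be told apart.

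Plants carry receptors at the cell surface that sense microbial molecules and fragments released from their own damaged cell walls, which are known as damage-associated molecular patterns. Such perception is known to set off a fast transcriptional response in leaves, in which genes for signalling, cell wall and defence proteins change within hours. Many genes of such responses have a basal level in resting leaves and are adjusted upwards from it, while others start from near silence; the members here have a basal level by their rule. The deposited table pairs no identifier with a gene name, and 0 of its identifiers matched the 39387 genes of the RefSeq name table used here. Gene functions, genome positions and leaf markers could therefore not be looked up, and members are given by their rank in the ratio of ShSDH1 mean to Control mean, with 2 identifiers printed.

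Most members started low and about doubled. Their median level was 7.24 FPKM with ShSDH1 and 3.22 FPKM in Control, with ranges of group means of 1.85 to 396 FPKM and 1.00 to 156 FPKM. The median ratio was 2.03, the middle 50% of members lay between 1.88 and 2.31, and the highest ratio was 8.15. Ratios from 1.8 to under 2 were found in 75 members and from 2 to under 2.5 in 66. A further 17 lay from 2.5 to under 3, another 8 from 3 to under 4, and 4 at 4 or more. In the middle of the range the distance between groups was modest. The lowest ShSDH1 library was a median of 1.55 times the highest Control library, at least 1.2 times in 147 members and at least 2 times in 19, but under 1.1 times in 5.

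**Figure D1:**
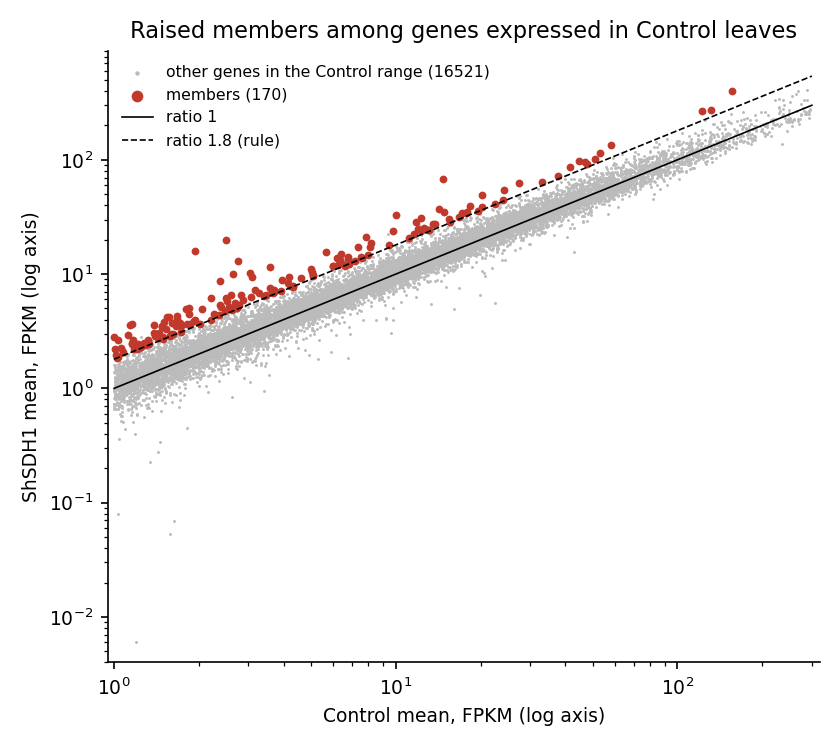
Mean FPKM of each gene in the ShSDH1 libraries (vertical, log axis) against its mean in the Control libraries (horizontal, log axis), with 3 libraries a group; red points are the 170 members, grey points the other 16521 genes in the same Control range, and 2 grey genes at 0 in ShSDH1 are not drawn. Most members lie close above the dashed line of ratio 1.8, and few lie far from it.

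The test across all genes was limma on log2(FPKM + 1), with Benjamini-Hochberg adjustment over 17247 tested genes and a threshold of 0.05. It called 1759 genes higher with ShSDH1, which is 10.2% of those tested, and 647 lower (3.75%). All 170 members passed the filter of at least 1 FPKM in 3 libraries, and 160 of them were called higher; since the rule used the same contrast, nothing follows from this count. In 150 members every Control library also reached 1 FPKM, and 20 had a Control library under that level. On the log2(FPKM + 1) scale the members had a median log2 fold change of 0.87, beside 0.04 over all tested genes. In 23.4% of tested genes the lowest ShSDH1 library exceeded the highest Control library, whereas the rule required this of every member. A limma fold change of at least 2 together with a call was found for 47 members, beside 0.394% of tested genes, and nothing follows from this count either. The background itself depended on the libraries and the scaling. Without Control replicates 1, 2 and 3 in turn, 450, 620 and 2073 genes were called higher. Without ShSDH1 replicates 1, 2 and 3 in turn, 584, 1345 and 1120 genes were called higher. With median-ratio size factors 1109 genes were higher and 845 lower, and with quantile normalization 1251 were higher and 990 lower.

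The member with the largest ratio was OsR498G0611627300.01, whose length read from the FPKM steps was 1913 bases. It had 11.03, 6.73 and 29.6 FPKM in ShSDH1 replicates 1, 2 and 3, against 3.15, 1.44 and 1.22 FPKM in Control replicates 1, 2 and 3. All ShSDH1 libraries were above all Control libraries, but the ShSDH1 libraries were far apart, with replicate 3 the highest and replicate 2 the lowest. Its mean was 15.8 ± 12.1 FPKM with ShSDH1 and 1.94 ± 1.06 FPKM in Control (SD, n = 3 each), a ratio of 8.15. Its log2 fold change in limma was 2.33 ± 0.45 (SE). Behind these values stood 752, 538 and 1904 implied fragments in the ShSDH1 libraries and 236, 102 and 96 in the Control libraries.

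The members ranked 2 to 4 by ratio had the same order of ShSDH1 libraries. Rank 2 had 19.2, 5.77 and 34.4 FPKM in ShSDH1 replicates 1, 2 and 3, against 5.24, 2.17 and 0.0898 FPKM in the Control replicates. Its value in Control replicate 3 rests on 4 fragments, and its lowest ShSDH1 library was close above its highest Control library. Rank 3 had 10.7, 9.06 and 19.4 FPKM with ShSDH1, against 4.01, 2.15 and 2.07 FPKM in Control. Rank 4 was more abundant, with 73.3, 28.2 and 103 FPKM with ShSDH1, against 24.1, 14.8 and 5.26 FPKM in Control. In each of these 4 members ShSDH1 replicate 3 was the highest and ShSDH1 replicate 2 the lowest ShSDH1 library, and Control replicate 1 was the highest and Control replicate 3 the lowest Control library. The median coefficient of variation of these 4 members was 63.8% among ShSDH1 libraries and 59.3% among Control libraries.

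The 8 members with ratios from 3 to under 4 were steadier, with median coefficients of variation of 12.7% with ShSDH1 and 23.9% in Control. Rank 5 had 11.5, 8.78 and 9.47 FPKM in ShSDH1 replicates 1, 2 and 3, against 2.51, 2.71 and 2.68 FPKM in Control. Its lowest ShSDH1 library was 3.24 times its highest Control library, the widest gap among the 170 members. Rank 6 had 8.20, 8.53 and 9.34 FPKM with ShSDH1, against 2.49, 1.65 and 3.01 FPKM in Control. Rank 8 had 31.9, 29.7 and 36.8 FPKM with ShSDH1, against 8.05, 9.53 and 12.6 FPKM in Control. In both the ShSDH1 libraries lay close together and well clear of Control. Rank 9 had 10.9, 12.6 and 10.9 FPKM with ShSDH1, against 2.89, 3.70 and 4.17 FPKM in Control. Rank 11 had 3.62, 3.41 and 3.76 FPKM with ShSDH1, against 1.29, 0.750 and 1.38 FPKM in Control. The remaining 3 of the 8, ranks 7, 10 and 12, had ShSDH1 means of 10.3, 3.66 and 9.44 FPKM against Control means of 3.03, 1.16 and 3.10 FPKM. All 3 had ShSDH1 replicate 2 as their lowest ShSDH1 library.

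**Figure D2:**
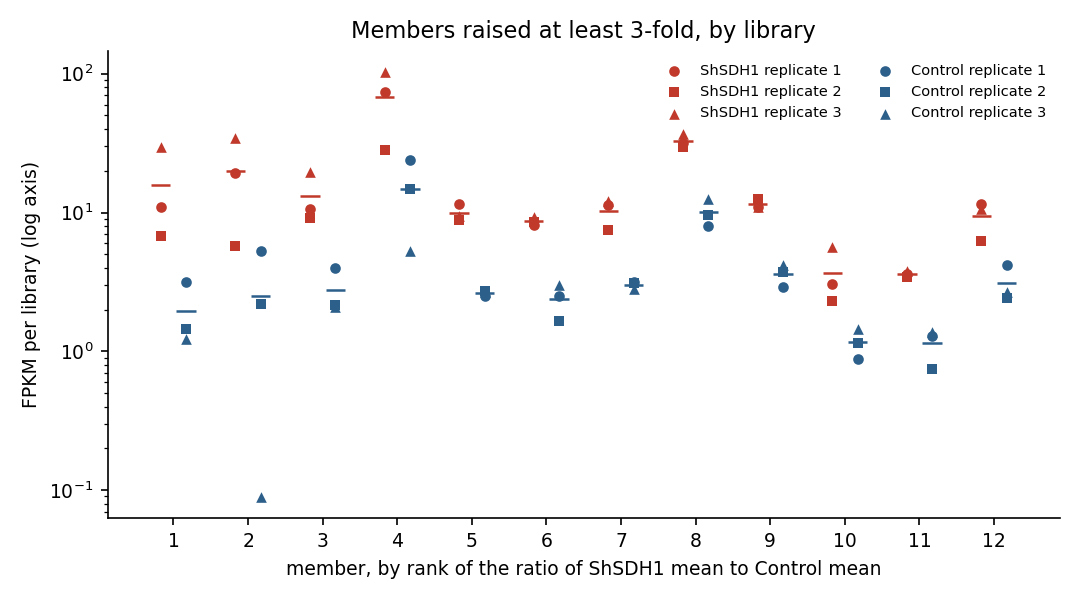
FPKM in each library (log axis) of the 12 members with a ratio of at least 3, ordered by that ratio; red symbols are ShSDH1 libraries, blue symbols Control libraries, shapes mark the replicate number and short lines the group means. The red triangles of ShSDH1 replicate 3 stand highest in the members ranked 1 to 4, while ranks 6, 8, 9 and 11 have tight ShSDH1 values.

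The 3 members at 100 FPKM or more in Control had ratios of 2.54, 2.17 and 2.09. The highest ShSDH1 mean belonged to OsR498G0102747100.01, rank 27 by ratio and 1299 bases long. It had 353, 488 and 348 FPKM in ShSDH1 replicates 1, 2 and 3, against 125, 155 and 188 FPKM in the Control replicates. Its lowest ShSDH1 library was well above its highest Control library, and here ShSDH1 replicate 2 was the highest. Its mean was 396 ± 79.3 FPKM with ShSDH1 and 156 ± 31.9 FPKM in Control (SD, n = 3 each), and its log2 fold change in limma was 1.34 ± 0.17 (SE). The other two members above 100 FPKM in Control showed the same order within the ShSDH1 group. Rank 73 had 265, 326 and 233 FPKM with ShSDH1, against 112, 111 and 170 FPKM in Control. Rank 58 had 260, 303 and 235 FPKM with ShSDH1, against 108, 134 and 125 FPKM in Control.

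The 9 members with a Control mean from 30 to under 100 FPKM had ratios between 1.93 and 2.31 and ShSDH1 means between 64.5 and 135 FPKM. The steadiest of them, rank 80, had 84.6, 87.2 and 85.1 FPKM in ShSDH1 replicates 1, 2 and 3, against 36.5, 44.9 and 43.2 FPKM in Control. Its groups lay far apart relative to the spread in either. In rank 92 the Control libraries varied more, with 98.0, 112 and 97.2 FPKM with ShSDH1, against 35.8, 59.4 and 57.0 FPKM in Control. In 7 of the 9, and in all 3 members at 100 FPKM or more, ShSDH1 replicate 2 was the highest of its group. No gene with a Control mean of 300 FPKM or more outside the left-out identifiers met the other conditions (0 genes). The number of genes at that level is not given here, so nothing follows from this count. The 10 members with the highest ShSDH1 means held 44.8% of the members' summed FPKM with ShSDH1 and 44.4% in Control.

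Members were not spread evenly over expression levels. From 1 to under 3 FPKM in Control there were 81, which is 2.17% of the genes of that level outside the left-out identifiers. From 3 to under 10 FPKM there were 48 (0.865%), and from 10 to under 30 FPKM 29 (0.605%). The share was 0.412% from 30 to under 100 FPKM and 0.704% from 100 to under 300 FPKM. The median ratio hardly differed between levels, at 2.07, 1.99, 1.98, 2.03 and 2.17 from the lowest level to the highest. Log2 fold changes of log2(FPKM + 1) had a median of 0.75 at the lowest level and 1.11 at the highest, because the added 1 shrinks low genes most. The replicate spread of other genes was also widest at the lowest level, with median coefficients of variation of 15.0% with ShSDH1 and 13.8% in Control, compared with 5.27% and 5.81% at the highest level. What part replicate spread has in the higher share of members at low levels was not tested.

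In the group from 1 to under 3 FPKM, which holds ranks 1, 2, 3 and 5 among others, the library medians over members were 3.61, 3.70 and 3.41 FPKM in ShSDH1 replicates 1, 2 and 3, against 1.87 FPKM in Control replicate 3 and just under 1.5 FPKM in each of the other Control replicates. In the group from 3 to under 10 FPKM they were 11.6, 11.2 and 10.9 FPKM with ShSDH1, against 4.49, 4.97 and 6.36 FPKM in Control. In the group from 10 to under 30 FPKM they were 31.6, 33.3 and 31.7 FPKM with ShSDH1, against 14.3, 15.2 and 16.7 FPKM in Control. Control replicate 3 had the highest Control median in all 3 groups. Beyond rank 4 and rank 8, the largest ratios in the last group were those of ranks 22 and 29. Rank 22 had 38.5, 34.9 and 38.0 FPKM with ShSDH1, against 11.6, 14.4 and 16.7 FPKM in Control. Rank 29 had 26.4, 38.6 and 28.3 FPKM with ShSDH1, against 12.3, 12.1 and 12.5 FPKM in Control. In rank 29 the Control libraries were almost level, and ShSDH1 replicate 2 stood above the other two ShSDH1 libraries.

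Summed over all members, the FPKM came to 3572, 3984 and 3547 in ShSDH1 replicates 1, 2 and 3, against 1483, 1693 and 1909 in Control replicates 1, 2 and 3. This was 0.819% ± 0.037 of all FPKM with ShSDH1 and 0.375% ± 0.046 in Control (SD, n = 3 each). The groups are apart by construction. The rule named no replicate, but it used the Control mean, the highest Control library and the lowest ShSDH1 library. The order and spread of libraries within the members are therefore not independent of the rule. The median member stood at 2.04, 2.13 and 1.96 times its own Control mean in ShSDH1 replicates 1, 2 and 3. In Control replicates 1, 2 and 3 it stood at 0.886, 0.975 and 1.12 times that mean, while the median other gene of the same Control range stood at 0.987, 0.987 and 1.03 times. Control replicate 3 was the highest Control library in 115 of the 170 members (67.6%), compared with 49.8% of the 16521 other genes. Control replicate 1 was the lowest in 106 members (62.4%), compared with 36.6% of the other genes. Control replicate 3 was thus the Control library nearest to the ShSDH1 level in most members. Because members share these 6 libraries, the counts describe the libraries and carry no test.

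**Figure D3:**
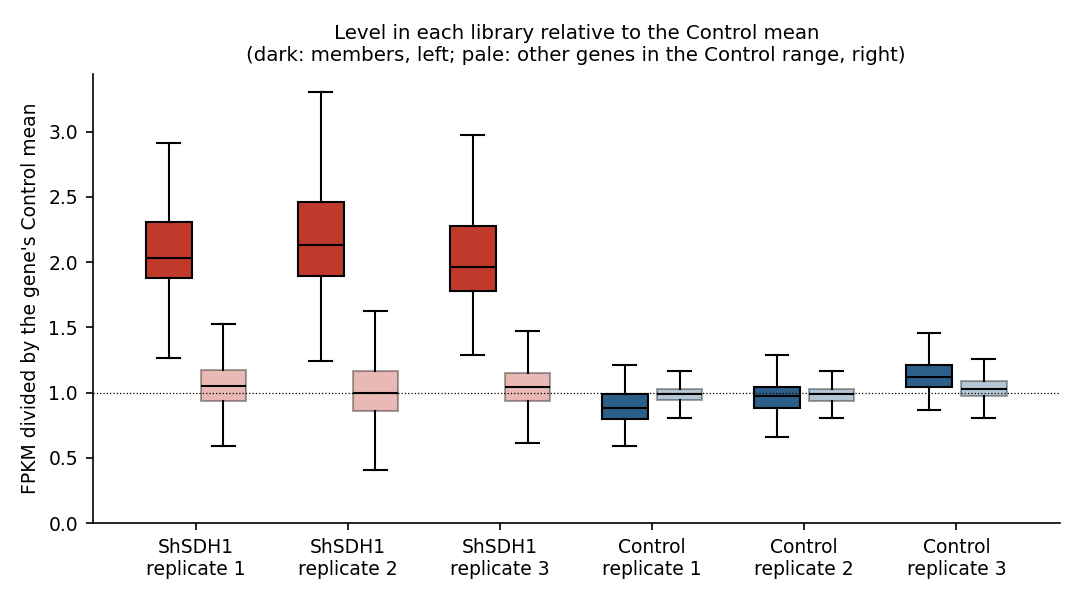
FPKM of each gene divided by its own Control mean, by library; boxes span the quartiles with the median as a line and whiskers reach 1.5 interquartile ranges, dark boxes are the 170 members and pale boxes the 16521 other genes in the Control range. Among the Control libraries the member median is 0.886 in replicate 1 and 1.12 in replicate 3, while the other genes stay between 0.987 and 1.03.

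Within the ShSDH1 group ShSDH1 replicate 2 was the highest in 87 members (51.2%), replicate 1 in 43 (25.3%) and replicate 3 in 40 (23.5%). Among the other genes of the range the shares were nearly equal, at 34.7%, 33.0% and 32.3% for replicates 2, 1 and 3. In 113 genes that met the same ratio and separation from a Control mean under 1 FPKM, with at least 1 FPKM with ShSDH1, replicate 2 was the highest in 25.7% and replicate 3 in 39.8%. In 79 genes of the members' Control range that were lower by the same ratio and did not overlap, the shares were 29.1% and 36.7%. The difference of these shares was not tested. ShSDH1 replicate 2 and Control replicate 3 were the deepest libraries of their groups, at 41776866 and 41180596 implied fragments, and ShSDH1 replicate 3 was the shallowest of all, at 33654750. FPKM are scaled to depth, and what part depth has in the order of libraries was not tested.

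The 87 members highest in ShSDH1 replicate 2 had a median Control mean of 6.40 FPKM, and 31 of them (35.6%) reached 10 FPKM in Control. Of the 40 highest in ShSDH1 replicate 3, 6 reached that level (15.0%), and their median Control mean was 2.62 FPKM. Of the 43 highest in ShSDH1 replicate 1, 4 reached it (9.30%), and their median Control mean was 2.39 FPKM. The median ratios for replicates 2, 3 and 1 were 2.03, 2.21 and 1.96. ShSDH1 replicate 3 was at least 2 times replicate 2 in 9 members, 5 of which were among the 10 members with the largest ratios, and Control replicate 1 was the highest Control library in 5 of the 9. Of the other genes of the range 1.77% showed such a difference, as did 21.2% of the 113 genes that started under 1 FPKM. The members ranked 1 to 4 are among the 9, and without ShSDH1 replicate 3 the log2 fold change of OsR498G0611627300.01 was 1.77 instead of 2.33.

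**Figure D4:**
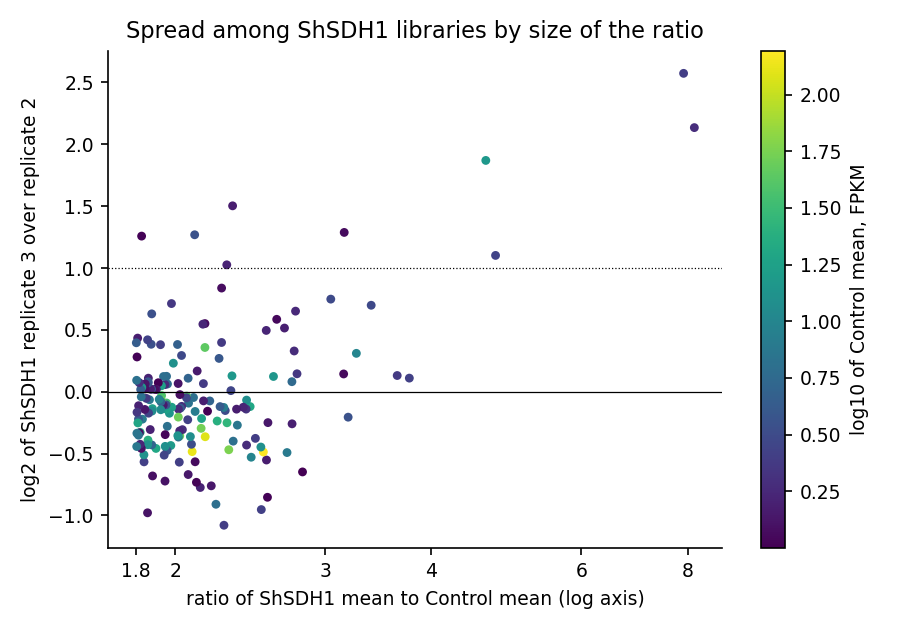
Each point is a member; the horizontal axis (log) is the ratio of ShSDH1 mean to Control mean and the vertical axis the log2 of ShSDH1 replicate 3 over ShSDH1 replicate 2, with colour giving the Control mean. The dotted line marks a difference of 2 times, passed by 9 members, among them those ranked 1 to 4, while most members lie slightly under 0 with a median of -0.12.

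Replicate spread depended on the level, and members lie lower than the other genes of the range. The median coefficient of variation was 12.9% with ShSDH1 and 17.6% in Control for members, compared with 8.39% and 7.42% for other genes. ShSDH1 values were closer at the lowest levels. They were 17.5% against 15.0% from 1 to under 3 FPKM and 10.4% against 9.10% from 3 to under 10 FPKM. The Control values at these levels were 20.9% against 13.8% and 14.2% against 8.01%. From 10 to under 30 FPKM the spreads were 10.1% against 6.43% with ShSDH1 and 13.1% against 5.51% in Control. From 30 to under 100 FPKM they were 8.16% against 5.77% with ShSDH1 and 18.4% against 5.13% in Control. At the highest level, with 3 members, they were 17.2% against 5.27% and 20.4% against 5.81%. Members thus had the wider median spread at every level, in both groups. The rule used the same FPKM, so this spread is not independent of it. The Control spread was wider than the ShSDH1 spread in 104 members. The implied fragments put the median counting error of a single library at 5.20% with ShSDH1 and 7.503% in Control. The observed spread exceeded 2 times the counting error in 107 members with ShSDH1 and in 103 in Control. It was at or under the counting error in 28 and 23 members. The matching shares of other genes were not computed for these counts or for the 104 members above, so nothing follows from them. The lowest fragment number was 23 in a ShSDH1 library and 4 in a Control library, and 7 members had a Control library under 20 fragments. At least 100 fragments in every library stood behind 103 members.

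The 10 members that limma did not call had wide spreads, with median coefficients of variation of 35.8% with ShSDH1 and 26.7% in Control, compared with 11.98% and 17.3% in the 160 called. In rank 124 the spread came from Control replicate 3: it had 36.3, 45.8 and 33.4 FPKM with ShSDH1, against 27.1, 31.3 and 2.44 FPKM in Control. Control replicates 1 and 2 of this gene lay close under its lowest ShSDH1 library. In rank 24 it came from ShSDH1, with 1.37, 4.22 and 2.33 FPKM with ShSDH1, against 1.08, 0.919 and 1.08 FPKM in Control. In rank 152 ShSDH1 replicate 3 stood alone, with 1.31, 1.29 and 3.08 FPKM with ShSDH1, against 0.917, 1.09 and 1.097 FPKM in Control. These were chosen after their values had been seen.

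The ratio threshold cut through a continuous distribution. The 5 members just inside had ratios from 1.801 to 1.804 and Control means of 2.22 to 7.61 FPKM. The 5 genes just outside, with libraries that did not overlap, had ratios from 1.788 to 1.798 and Control means of 1.34 to 19.2 FPKM. At the lower Control limit the nearest members had Control means of 1.001, 1.004 and 1.017 FPKM, and the nearest genes below it 0.972, 0.962 and 0.945 FPKM. Of the 17 genes that reached the ratio but overlapped, the largest ratio was 2.38, in a gene with 26.9, 6.70 and 33.5 FPKM with ShSDH1. Its highest Control library, at 12.9 FPKM, lay above ShSDH1 replicate 2. The gene left out with the identifier stretches had means of 19.0 FPKM with ShSDH1 and 1.09 FPKM in Control, a ratio of 17.4.

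The members were short genes, a property the rule did not use. Their median length was 1379 bases, compared with 2265 bases in 16518 other genes of the range with a recovered length. Under 1000 bases lay 47 members (27.6%) and 9.80% of the other genes. The difference held at each level of Control expression, with medians of 1289 against 2006 bases from 1 to under 3 FPKM, 1369 against 2305.5 from 3 to under 10, and 1523 against 2465 from 10 to under 30. It was 1664 against 2235 bases from 30 to under 100 FPKM and 1447 against 2052 bases at the highest level, which has only 3 members. Genes that started under 1 FPKM and were raised by the same ratio had a median of 1323 bases and genes lowered by that ratio 1246 bases, so short length was shared by genes that differed strongly in either direction. Short genes collect fewer fragments: the median of the mean fragments per library was 285 in members and 742 in the other genes. Among genes with a mean of at least 500 fragments, 57 members had a median of 1743 bases and 9951 other genes 2642 bases. What part depth has in the difference of length was not tested.

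**Figure D5:**
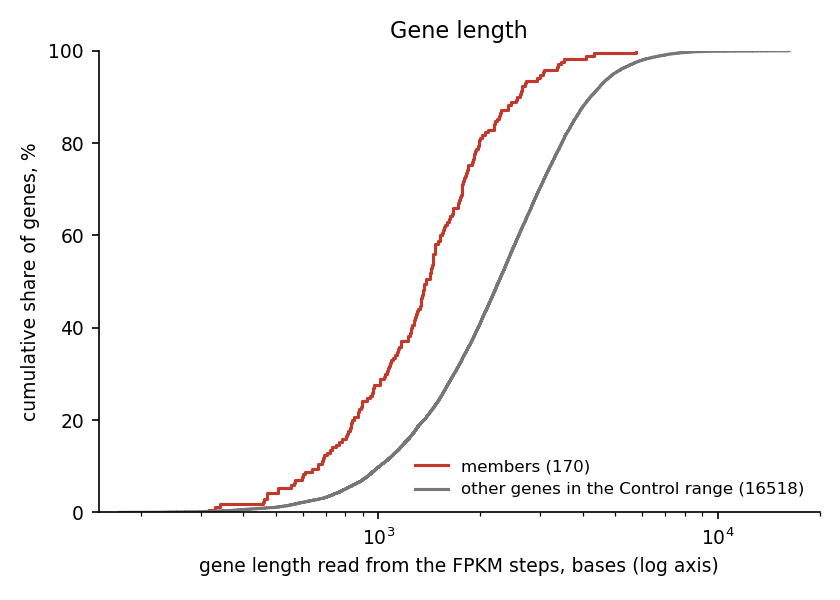
Cumulative share of genes (vertical, %) by gene length in bases (horizontal, log axis), as read from the steps of the FPKM values; red is the 170 members and grey the 16518 other genes in the Control range with a length. The members' curve lies to the left, with medians of 1379 and 2265 bases.

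Members were also frequent in a separate series of identifiers. In most identifiers the numbers run on through the chromosomes, but in 653 listed genes the third and the fourth digit after the prefix form a number of 60 or more. These made up 15 of the 170 members (8.82%) and 224 of the 16521 other genes (1.36%). Of the 239 such genes in the Control range 6.28% were members, compared with 0.942% of the 16452 genes with the usual numbers. All 15 had lengths that are multiples of 3, from 318 to 2418 bases, as had all 224 of the other genes with such numbers. A coding sequence has a length that is a multiple of 3, but what these identifiers stand for is not stated. Among members with the usual numbers 37.4% had a length that is a multiple of 3, beside 33.4% of other genes with those numbers.

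The 15 members of the separate series had a median ratio of 2.56, compared with 2.02 in the 155 others, and Control means of 1.00 to 20.3 FPKM. Ranks 4, 5 and 9, given above, are among them. Rank 13 had 2.32, 3.75 and 2.40 FPKM with ShSDH1, against 1.11, 0.884 and 1.01 FPKM in Control. Rank 39 had 13.3, 17.9 and 13.5 FPKM with ShSDH1, against 5.88, 6.61 and 6.63 FPKM in Control. Both had groups well apart, but rank 13 rests on 20, 15 and 19 fragments in Control replicates 1, 2 and 3. Ranks 24 and 124, described above as not called by limma, also belong to the series. Of 246 tested genes of the separate series, 31 (12.6%) were called higher in limma, beside 10.2% of all tested genes. Lower calls were made for 14 of the 246, beside 3.75% of all tested genes. Genes of this series were 2.65% of the 113 genes raised from under 1 FPKM (3 genes) and 2.53% of the 79 lowered genes (2 genes). These members were short, with a median of 600 bases, and 1 of the 57 members with a mean of at least 500 fragments belonged to the series (1.75%), compared with 57 of the 9951 other genes at that depth (0.573%). With 1 member this share carries little weight. Their part in the length difference can be read from the rest: members with the usual numbers had a median of 1435 bases and other such genes 2283 bases.

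In identifier order the members were widespread, but some had close numbers. The leading digits of the identifiers run from 1 to 12, as rice chromosomes do, and every number held members, from 5 under number 11 to 27 under number 1. Relative to the genes of the Control range the share ran from 0.566% under number 11 to 1.18% under number 9. Some members had close numbers without being next to each other among tested genes. Examples are ranks 15, 97 and 127, ranks 65 and 69, and ranks 48 and 104. Whether such closeness exceeds that of other genes was not tested. Only 2 pairs of members with the usual numbers stood next to each other among tested genes. In the first pair the ShSDH1 means were 2.48 ± 0.603 and 5.41 ± 0.947 FPKM, against Control means of 1.27 ± 0.0782 and 2.79 ± 0.0352 FPKM (SD, n = 3 each), and the ratios were 1.946 and 1.942. In the second pair the ShSDH1 means were 7.86 ± 0.245 and 2.69 ± 0.937 FPKM, against Control means of 4.32 ± 0.614 and 1.49 ± 0.349 FPKM (SD, n = 3 each), and the ratios were 1.82 and 1.81. The ratios within each pair were nearly equal, although the levels differed. Both pairs lie at ratios from 1.8 to under 2, as do 75 of the 170 members, so nothing follows from this nearness. Whether reads were shared within a pair was not tested.

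Genes next to a member, which the rule did not choose, were called higher somewhat more often than the background. Of 300 tested neighbours that were not members, 45 (15.0%) were called higher in limma, beside 10.2% of all tested genes, and 8 (2.67%) lower, beside 3.75%. Their median log2 fold change was 0.06, beside 0.04 over all tested genes, and 13 of the 300 had a ratio of at least 1.5. At least 1 neighbour called higher, member or not, stood beside 44 of the 155 members with the usual numbers. The matching shares over all tested genes were not computed for this count or for the ratio of at least 1.5. Nothing follows from either count. Identifier order was taken as order along a chromosome without coordinates to check it, and the share was not tested against the background.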

How the data were processed

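RNA of rice leaves was sequenced in 3 ShSDH1 and 3 Control libraries, grouped and numbered by sample titles. The authors deposited 1 table of FPKM per library, without pooling. The sources used here do not give the aligner, counting tool or annotation, and the submitters' processing notes name only GRCm38 and mm10, which are mouse builds. Use of strand in counting is not stated either; overlapping, antisense and near-identical genes may share reads.

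Low FPKM fall on steps of whole fragments. From these steps totals of 33654750 to 41776866 fragments per library were computed, and all 25303 genes above 0 in at least 4 libraries had a whole length in bases with fragment numbers within 0.0002 of whole; the recovery was also tested on simulated data. Counting error covers counting only. 

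limma 3.58.1 in R 4.3.3 (lmFit, eBayes with a mean-variance trend) was run on log2(FPKM + 1) over 17247 genes that reached 1 FPKM in 3 libraries or more, and 11764 genes were not tested. This scale understates changes of low genes. P-values are two-sided. It was checked on simulated data. pandas 2.3.3, NumPy 2.4.6 and matplotlib 3.10.9 in Python 3.11.15 served for the rest. 

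The members, groups and comparisons were chosen with earlier results of these data known. Printed identifiers are the members of largest ratio and of highest ShSDH1 mean; others are given by rank or within 5 groups of Control mean. Lengths, identifier series, neighbours and order of libraries are descriptions without tests. Alternatives were other limits of the rule, scalings, pseudocounts, filters, variance models, a replicate block, voom on implied fragments and each library left out.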

Additional observations from a re-analysis of the deposited data

How the results depend on the processing

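The 170 members became 507 with a ratio of at least 1.5, 95 with at least 2 and 113 with a Control mean from 2 FPKM; leaving out a library gave 145 to 240, of which 123 to 161 were among the 170. Rescaling to TPM gave 252 members (168 shared), quantile normalization 125 (124 shared) and median-ratio size factors 131 (131 shared). TPM values are larger than FPKM here, so the unchanged Control limit admits genes of lower FPKM and the added 1 weighs less. A Control mean from 0.5 FPKM, without rescaling, gave 238 members. What part the shifted limit has in the TPM count was not tested. Of the members, 160 were called higher by limma, 95 of the 96 tested with a filter at 5 FPKM, and 109 to 154 with a library left out. Their median log2 fold change of 0.87 was 1.02 and 1.04 with pseudocounts of 0.1 and 0.01, which shrink low genes less, 0.95 after rescaling to TPM and 0.81 with quantile normalization, and 0.79 to 0.94 with a library left out. Over all tested genes the 1759 higher calls were 1109 with median-ratio size factors and 1086 with no filter on low values, and 450 to 2073 with a library left out; the cause was not tested. All tested genes had a median log2 fold change of 0.04, and of -0.01 with both median-ratio size factors and quantile normalization. The replicate block called 165 members and 1643 genes higher. Same-numbered libraries deviated from their group means with correlations of 0.18, 0.27 and -0.02, and the others with -0.29 to 0.15. These values do not settle whether the numbers pair the libraries, and the labels do not say. The main fit used no replicate block. Alternatives for the identifier series, the gene length and the order of libraries were chosen after seeing the data. The separate identifier series held 15 members, 26 with a ratio of at least 1.5, 8 with a Control mean from 2 FPKM and 12 to 17 with a library left out. The median length stayed between 1341 and 1599 bases in all 16 alternatives, and ShSDH1 replicate 2 was the highest in 76, 99 and 103 of the 170 members after TPM, median-ratio and quantile scaling, against 87. The rule chose both printed members by the contrast that limma tests, so nothing follows from their calls or adjusted p. OsR498G0102747100.01 was called higher in all 17 alternatives. OsR498G0611627300.01 was not called with robust eBayes, with no filter or without Control replicate 2, at limma adjusted p of 0.0642, 0.0528 and 0.0533, against 0.0154, with a range of 0.00810 to 0.0642 over 17 alternatives.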
